A study of Mus musculus with 13 samples.

Results

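Upk3b, Bnc1, Msln, Wt1, Lrrn4 and Upk1b are 6 genes of the mesothelium, and their levels are described here across 13 RNA libraries of *mdm* mouse muscle. They are 6 of the 17924 genes analysed, and all 6 passed the limit on low counts that 17069 genes passed. The 6 were chosen because their levels stood out in the libraries of the psoas, so their values in psoas set against the other muscles are given as a description, without a test.

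The mesothelium is the single layer of flat cells that lines the peritoneal, pleural and pericardial cavities and covers the organs inside them. Its cells are epithelial in shape but arise from mesoderm, and they carry surface glycoproteins, uroplakins and keratins beside transcription factors of the embryonic body-cavity lining. The psoas lies beside the lumbar spine at the back of the abdominal cavity, whereas the extensor digitorum longus (EDL) and the soleus are muscles of the lower leg.

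All libraries came from mice of genotype *mdm*, a mutation that removes part of the N2A and PEVK regions of titin (Ttn), from a colony of strain B6C3Fe a/a-Ttn mdm/J, and the labels name no treatment. Whole-muscle RNA was sequenced from 5 EDL, 5 psoas and 3 soleus muscles. The EDL mice were 38 days old except for replicate 3 at 42 days, the psoas mice were 29, 38, 42, 38 and 38 days old in the order of the replicates, and the soleus mice were 33, 36 and 38 days old. No wild-type library is analysed here, and the labels give the sex for some mice only. Over both genotypes the paper used fewer mice than muscles, so some mice gave several muscles, but the labels do not name the mouse. EDL and psoas have the same age and the same label code for each of replicates 2 to 5. The main fit treats all libraries as independent.

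Total counts ran from 9114176 to 48835209 per library, with medians of 16986976 in EDL, 20588849 in psoas and 22251013 in soleus. The 23 pairs of replicates held no duplicate, since their counts differed by a chi-square of at least 56.5 per degree of freedom. Ttn is no check of the labels, because all groups carry the mutation and the gene-wide count hides the deletion. All 10 listed genes of skeletal muscle were present, and their summed normalized count (the count divided by the size factor of the library) was between 1833962 and 3647890 in EDL, between 999486 and 1976098 in psoas and between 966600 and 1373399 in soleus. The labels do not say whether replicates of a muscle were processed apart, so p-values measure the spread between these libraries.

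Msln encodes mesothelin, a glycoprotein anchored on the surface of mesothelial cells. It lies on the reverse strand of chromosome 17 (ENSMUSG00000063011, GRCm38 chr17:25748613-25754378), and its exons cover 3064 bases. Its normalized counts in psoas replicates 1 to 5 were 147, 554, 233, 293 and 130. In EDL they were 94.5, 41.5, 35.8, 53.4 and 25.7, and in soleus 65.4, 27.9 and 86.0. Every psoas library was thus above every EDL and every soleus library, but Msln was present in all 13, with at least 18 counts. The mean was 271 ± 171 (SD, n = 5) in psoas, 50.2 ± 26.7 (SD, n = 5) in EDL and 59.7 ± 29.5 (SD, n = 3) in soleus, which made psoas 5.41-fold higher than EDL and 4.54-fold higher than soleus.

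Upk3b and Upk1b encode uroplakins, membrane proteins first known from the plaques on the surface of the bladder epithelium, of which Upk1b is a tetraspanin and Upk3b a single-pass membrane protein. Upk3b lies on the forward strand of chromosome 5 (ENSMUSG00000042985, GRCm38 chr5:136038496-136046487, 3530 exon bases). Its normalized counts were 126, 189, 36.6, 91.2 and 27.4 in psoas replicates 1 to 5. Among the EDL libraries, 1 held a single Upk3b count and the others held 0. In soleus the values were 5.79, 0 and 1.72 for replicates 1 to 3, from 14, 0 and 1 counts. Upk3b was therefore at or near the limit of detection in EDL, well counted in every psoas library, and low in soleus with replicate 1 highest. The mean in psoas was 94.0 ± 66.7 (SD, n = 5), at least 28.5-fold higher than a floor of 3 counts per EDL library and 37.5-fold higher than the mean in soleus of 2.50 ± 2.98 (SD, n = 3).

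Upk1b lies on the reverse strand of chromosome 16 (ENSMUSG00000049436, GRCm38 chr16:38773184-38800328, 2089 exon bases). Its normalized counts were 120, 92.9, 55.0, 38.2 and 9.95 in psoas. EDL replicates 1 and 2 held 2 counts each and the other 3 held 0, while the soleus libraries held 15, 0 and 1 counts. The lowest psoas library, replicate 5 with 12 counts, was still above the highest soleus library on the normalized scale, 9.95 against 6.21. The mean in psoas, 63.2 ± 43.8 (SD, n = 5), was at least 19.2-fold higher than the floor in EDL and 23.9-fold higher than in soleus.

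Wt1 and Bnc1 encode zinc finger proteins of the nucleus. Wt1 is a transcription factor that marks the lining of the body cavities and is needed for kidney and gonad development, and it lies on the forward strand of chromosome 2 (ENSMUSG00000016458, GRCm38 chr2:105126529-105173616, 6195 exon bases). Its normalized counts in psoas were 118, 92.4, 7.33, 19.1 and 11.6, so replicates 1 and 2 stood far above the other 3. EDL replicates 1 and 2 held 1 count each and the others 0, and the soleus libraries held 9, 0 and 2 counts. The mean in psoas was 49.7 ± 51.8 (SD, n = 5), an SD larger than the mean. It was at least 15.1-fold higher than the floor in EDL and 20.8-fold higher than the soleus mean.

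Bnc1 encodes basonuclin 1, known from keratinocytes and germ cells. It lies on the reverse strand of chromosome 7 (ENSMUSG00000025105, GRCm38 chr7:81966672-81992292, 4646 exon bases), where 98 of its exon bases overlap a pseudogene of the opposite strand that is not among the genes analysed here. Its normalized counts were 96.9, 72.6, 10.99, 23.5 and 4.14 in psoas, the last from 5 counts. No EDL library held a Bnc1 count, which allows up to 3 counts, or 0.0614 to 0.249 CPM (counts scaled to the library total), per library. The soleus values of 7.03, 0 and 1.72 overlapped those of psoas, since soleus replicate 1 was above psoas replicate 5. The psoas mean of 41.6 ± 40.9 (SD, n = 5) was at least 12.6-fold higher than the floor in EDL and 14.3-fold higher than in soleus.

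Lrrn4 encodes a membrane protein with leucine-rich repeats. It lies on the reverse strand of chromosome 2 (ENSMUSG00000043110, GRCm38 chr2:132868305-132880891, 3715 exon bases). Its normalized counts were 91.3, 106, 77.9, 53.8 and 24.9 in psoas, 3.83, 4.47, 3.98, 2.18 and 2.71 in EDL, and 41.0, 14.3 and 15.5 in soleus. The EDL libraries were lowest, with no overlap with soleus or psoas, and soleus replicate 1 was above psoas replicate 5. The mean was 70.8 ± 32.1 (SD, n = 5) in psoas, 20.6-fold higher than 3.43 ± 0.953 (SD, n = 5) in EDL and 3.004-fold higher than 23.6 ± 15.1 (SD, n = 3) in soleus. In EDL, 3 of the 5 libraries held 2 counts each.

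**Figure D1:**
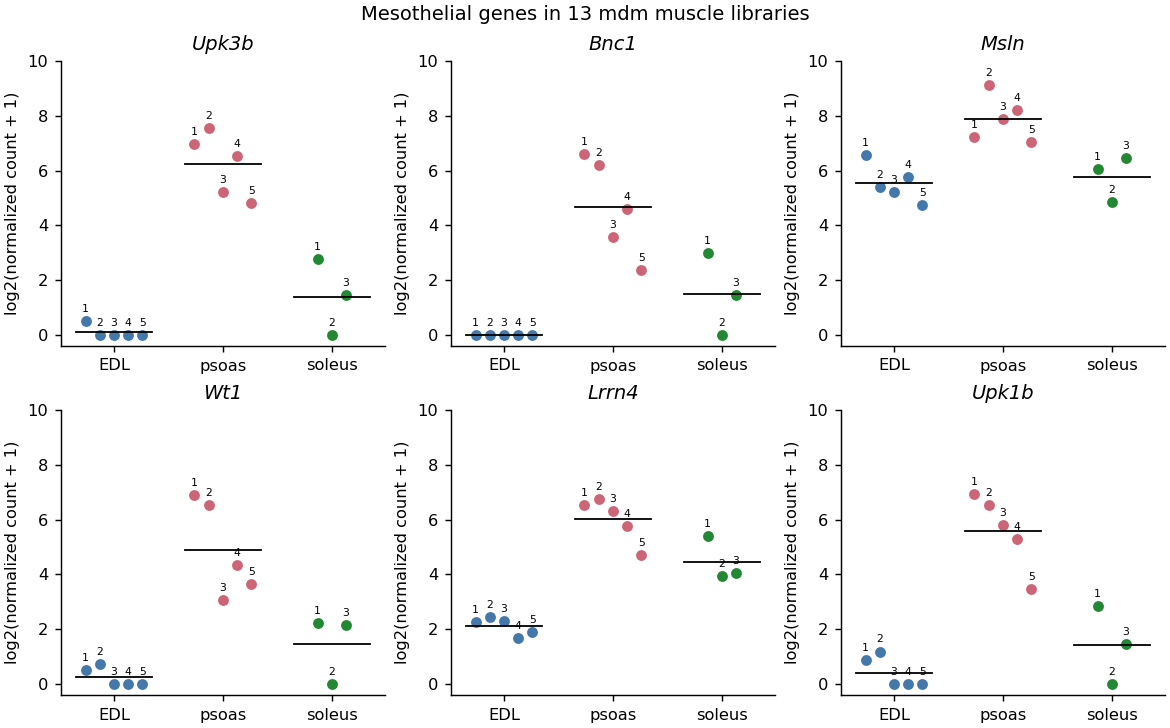
Each panel plots 1 of the 6 mesothelial genes, with log2(normalized count + 1) on the vertical axis and 1 point per library, numbered by replicate, for *mdm* EDL (5), psoas (5) and soleus (3); the bar is the mean of the points. Every psoas point is above every EDL point in all 6 panels, and psoas and soleus overlap for Bnc1 and Lrrn4.

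Across the members, every psoas library was above every EDL library for 6 of 6, and this was so for 6.48% of all 17069 genes tested. Every psoas library was above every soleus library for 4 of 6, against 5.19% of all genes, with Bnc1 and Lrrn4 as the exceptions. Nothing is read from these shares, since the same values chose the genes. In RNA of whole muscles, more cells of a type and more RNA per cell of that type cannot be told apart.

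Per length, Msln was the most abundant member in psoas, at 88.6 ± 55.9 normalized counts per kb of exon (SD, n = 5). Upk1b followed with 30.3 ± 20.9, Upk3b with 26.6 ± 18.9, Lrrn4 with 19.1 ± 8.64, Bnc1 with 8.96 ± 8.80 and Wt1 with 8.03 ± 8.35 (SD, n = 5 each). The steps between Upk1b, Upk3b and Lrrn4 and between Bnc1 and Wt1 were smaller than the SD of either gene, and the order was not the same in each library. In psoas replicate 1, Upk1b was above Msln, at 57.5 against 48.0 normalized counts per kb. In EDL and soleus, Msln was also first, at 16.4 ± 8.72 (SD, n = 5) and 19.5 ± 9.62 (SD, n = 3) per kb, and Lrrn4 second, at 0.924 ± 0.256 and 6.35 ± 4.06 per kb.

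The promoters are shown for the members with an entry in the RefSeq promoter table of GRCm38.p6, because the members varied together across libraries. Those are Upk3b, Bnc1 and Lrrn4, 3 of the 6. The stretch is the part of the 250 bases before the RefSeq start that lies outside the annotated gene, written 5′ to 3′ on the strand of the gene, at chr5:136038246-136038495 (forward) for Upk3b, chr7:81992300-81992549 (reverse) for Bnc1 and chr2:132880892-132881112 (reverse) for Lrrn4. The last was shortened by 29 bases, because the GENCODE start lies further upstream. Capitals mark matches, on either strand, to 5 motifs, of which GGAATG (core of the TEAD site) and GGGCGG (GC box) were found.
Upk3b: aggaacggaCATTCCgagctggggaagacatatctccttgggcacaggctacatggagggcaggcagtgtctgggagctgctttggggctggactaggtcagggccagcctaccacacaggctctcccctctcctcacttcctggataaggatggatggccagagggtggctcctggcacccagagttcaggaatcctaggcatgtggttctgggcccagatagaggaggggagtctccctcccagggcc
Bnc1: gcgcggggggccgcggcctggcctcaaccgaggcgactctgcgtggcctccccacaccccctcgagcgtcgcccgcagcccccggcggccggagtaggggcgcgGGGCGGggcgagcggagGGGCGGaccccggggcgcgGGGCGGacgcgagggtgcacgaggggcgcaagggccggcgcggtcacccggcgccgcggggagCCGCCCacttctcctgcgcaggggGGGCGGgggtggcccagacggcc
Lrrn4: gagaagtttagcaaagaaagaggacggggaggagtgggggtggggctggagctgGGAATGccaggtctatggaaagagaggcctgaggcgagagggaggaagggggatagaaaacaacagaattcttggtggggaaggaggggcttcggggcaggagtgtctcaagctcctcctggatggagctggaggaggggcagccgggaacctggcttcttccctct

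The stretches of Upk3b and Lrrn4 each held 1 match to GGAATG, which 12.6% of 32841 promoters of 250 bases also held. The stretch of Bnc1 held 5 matches to GGGCGG, held by 32.8% of all promoters, at a GC content of 83.6%, above the 95th percentile of 73.6% over all promoters. It held 39 CpG dinucleotides, against 2 in Upk3b and 4 in Lrrn4, whose GC contents were 60.8% and 59.3%. The other 3 motifs were GCGTGGG, the core of a WT1 site, AGATAA, known as a site of GATA factors, and TATAAA, the letters of the core promoter box. They were held by 4.31%, 9.99% and 12.4% of all promoters and gave no match in these windows. A match describes the letters and not a bound site.

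The summed level of the 6 genes was 42.9 ± 28.7 CPM in psoas (SD, n = 5), 2.63 ± 1.36 CPM in EDL (SD, n = 5) and 5.86 ± 2.81 CPM in soleus (SD, n = 3). The psoas libraries held 50.1, 87.96, 27.6, 36.6 and 12.2 CPM in the order of the replicates, the soleus libraries 7.90, 2.65 and 7.02 CPM, and the EDL libraries between 1.46 and 4.81 CPM. No psoas library overlapped the other muscles. As normalized counts, the sums were 591 ± 339 in psoas (SD, n = 5), 54.3 ± 27.5 in EDL (SD, n = 5) and 93.8 ± 45.7 in soleus (SD, n = 3). The excess of psoas depended on the scale and was smaller in normalized counts than in CPM. On the scale of log2(summed CPM + 0.1), psoas was 3.82 above EDL, with a pooled SD of 0.881, and 2.71 above soleus, with a pooled SD of 0.989. Without both psoas libraries of the highest sum, replicates 1 and 2, the differences were 3.22 and 2.11.

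Msln made up most of the sum in EDL, between 86.7% and 96.1% of the counts of the 6 genes. Its share was between 50.6% and 78.1% in soleus and between 50.05% and 62.5% in psoas replicates 2 to 5. In psoas replicate 1 it was 21.04% (Wilson 95% interval 19.1% to 23.2%, which covers counting error only), the lowest of the 13 libraries. Without Msln, the sum of the other 5 genes was between 4.57 and 43.9 CPM in psoas, between 0.118 and 0.295 CPM in EDL and between 0.899 and 3.90 CPM in soleus.

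**Figure D2:**
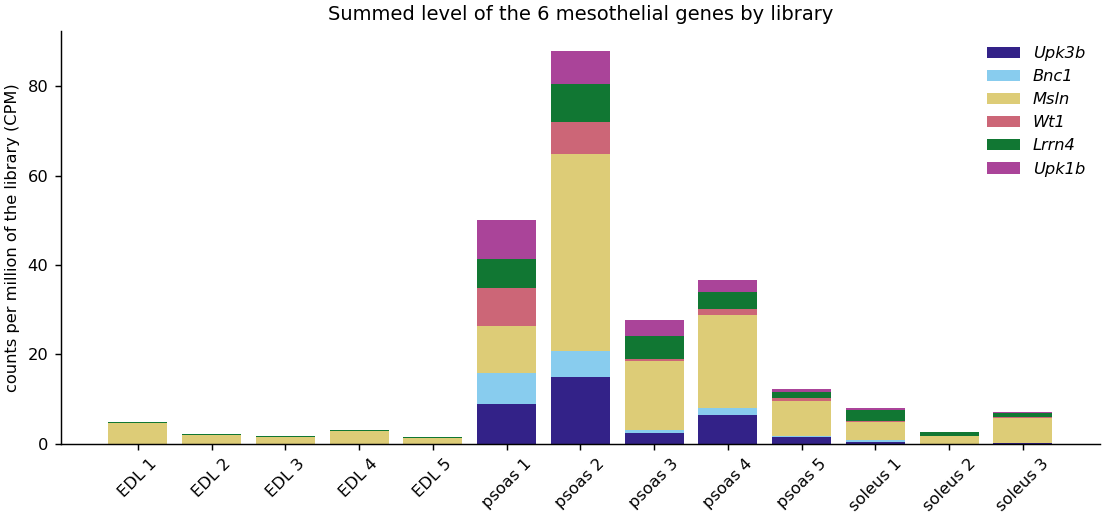
Stacked bars give the level of each of the 6 mesothelial genes in CPM for each of the 13 libraries. The psoas bars reach 12.2 to 87.96 CPM, the EDL bars at most 4.81 CPM and the soleus bars at most 7.90 CPM, and the share of Msln is lowest in psoas 1.

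The labels carry a code, T1 to T6, that they do not explain, and 3 of the codes hold libraries of more than 1 muscle. Within T4, the psoas library (replicate 2) held 39.8 times the summed CPM of the EDL library and 16.7 times the mean of the soleus libraries. Within T5, the psoas library held 16.7 times the EDL library. Within T6, the mean of both psoas libraries was 10.9 times that of both EDL libraries and 3.47 times the soleus library. These ratios are of CPM and are smaller in normalized counts. There the sums of psoas and EDL were 1108 and 47.8 within T4, and 420 and 39.8 within T5. In each of these comparisons all 6 members were higher in every psoas library. Each side held only 1 or 2 libraries, and the share over all genes was not computed. Nothing is read from this count, since the same values chose the members. EDL replicate 1 and psoas replicate 1 each have a code of their own, so neither enters these ratios.

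The members differed widely between the psoas libraries themselves. The highest psoas library was 23.4-fold above the lowest for Bnc1, 16.1-fold for Wt1, 12.1-fold for Upk1b, 6.91-fold for Upk3b, 4.27-fold for Lrrn4 and 4.26-fold for Msln. Replicate 1, from the youngest mouse, was highest for Bnc1, Wt1 and Upk1b, and replicate 2 was highest for Upk3b, Msln and Lrrn4. Replicate 2 was first or second for all 6 genes and replicate 1 for 5, Msln being the exception, where only replicate 5 was lower. Replicate 5 was lowest for 5 genes, and replicate 3 for Wt1.

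Over the 13 libraries, the log2 CPM of each member correlated with the mean of the other 5 by r = 0.88 for Msln and by 0.92 to 0.98 for the others. After the mean of each muscle was subtracted, r was 0.49 for Msln, 0.81 for Lrrn4, 0.82 for Wt1, 0.90 for Upk1b and 0.94 for both Upk3b and Bnc1. These are descriptions over 13 libraries that share 3 muscles, and they are partly fixed by the choice of the genes. Msln was the member least tied to the others within a muscle.

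Soleus against EDL compares no psoas library, although the psoas libraries entered the shared estimate of the spread and the limit on low counts. It was tested for Lrrn4 and Msln, which passed that limit of 10 normalized counts in 3 libraries without psoas. Lrrn4 did so only through soleus, where it was high, at 14.3 to 41.0 against 2.18 to 4.47 in EDL. Its call is therefore given as a description only. A gene was called if its adjusted p was under 0.01 and it differed by more than 1 on the log2 scale. The EDL libraries also entered the comparison in which the members stood out, so the test is not wholly apart from the choice. Lrrn4 was higher in soleus, with a log2 fold change of 2.76 ± 0.519 (SE) and an adjusted p of 0.00988 (edgeR's quasi-likelihood test, Benjamini-Hochberg adjustment over 17069 genes). Over the whole table, 0.533% of genes were called higher in soleus. Every soleus library was above every EDL library in Lrrn4, as for 5.33% of all genes. This call lay close to the limit of 0.01 and held in 3 of 19 alternatives, over which the adjusted p from edgeR or DESeq2 ran up to 0.120. It was lost when any single library other than psoas replicate 5 was left out, and with the replicate number as a block (edgeR adjusted p = 0.120).

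Upk3b, Bnc1, Wt1 and Upk1b passed the limit on low counts only through psoas, and EDL was at or under 2 counts per library, so no test is read for them. Most of their soleus counts came from replicate 1, where they held 14, 17, 9 and 15 counts, against 0 in replicate 2 and 1 or 2 in replicate 3. Msln had a log2 fold change of 0.20 ± 0.513 (SE, edgeR adjusted p = 0.904), a difference smaller than its SE.

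Other genes known from mesothelium were followed in a list of 20, of which 16 were among the genes analysed and all 16 were tested. In psoas against EDL, 5 of the 16 were higher, 0 were lower and 11 did not pass, where 2.43% of all genes were called higher. Of those called, Nkain4 passed the limit on low counts only through psoas, so its call is a description only. The median log2 fold change of the 16 was 1.63, against 0.02 over all genes, and 15 of 16 were positive. The list was drawn up with earlier results of these data known, and DESeq2 called 8 of its genes. Without psoas replicates 1 and 2, the highest in summed level, 1 of the 16 was called, and 121 genes over the whole table. All libraries gave 841 (4.93% of those tested), and the EDL and psoas libraries with the replicate block gave 1267. Leaving out EDL replicate 3 or 5 left 3 of the 16 called.

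Gpm6a, a membrane glycoprotein also known from neurons, had 232 ± 93.4 normalized counts in psoas and 28.1 ± 12.3 in EDL (SD, n = 5 each). Its psoas values of 327, 331, 128, 162 and 211 all lay above the EDL range of 16.6 to 48.5, and the soleus libraries lay between at 75.7 to 108. Psoas was above EDL by a log2 fold change of 3.01 ± 0.341 (SE, edgeR adjusted p = 0.000654), and this call held in all 19 alternatives.

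Rspo1, a secreted activator of Wnt signalling, ran from 28.4 to 134 normalized counts in psoas and from 1.99 to 11.5 in EDL (log2 fold change 3.16 ± 0.536 SE, edgeR adjusted p = 0.00253). Gata6, a zinc finger transcription factor, ran from 19.9 to 117 in psoas and from 0 to 10.9 in EDL (log2 fold change 3.40 ± 0.613 SE, edgeR adjusted p = 0.00348). For both, psoas replicates 1 and 2 were the highest libraries, as for every member but Msln. Ildr2, a membrane protein with an immunoglobulin-like domain, had 228, 472, 185, 201 and 177 normalized counts in psoas and 52.4 to 111 in EDL (log2 fold change 1.74 ± 0.308 SE, edgeR adjusted p = 0.00321). Nkain4, which interacts with the sodium pump, had 34.5, 86.5, 30.2, 18.2 and 17.4 in psoas and 1.91 to 9.79 in EDL (log2 fold change 2.55 ± 0.560 SE, edgeR adjusted p = 0.00872). It passed the limit on low counts only through psoas. The calls of Rspo1, Gata6 and Ildr2 held in 18, 17 and 17 of 19 alternatives. All 3 were lost without psoas replicates 1 and 2 (edgeR adjusted p of 0.0232, 0.0331 and 0.0189), Gata6 also without EDL replicate 5 (0.0101) and Ildr2 without EDL replicate 3 (0.0109). The call of Nkain4 held in 6, with an edgeR adjusted p of 0.0202 with the replicate number as a block, of 0.0742 without psoas replicates 1 and 2, and of 0.0101 to 0.0262 without any 1 EDL library, without psoas replicate 1, 2 or 3 or without soleus replicate 1 or 3.

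The 3 genes of the list with the highest level per kb in psoas were keratins and a mucin-type glycoprotein that other cells also make, and none of the 3 was called. Krt18 had 2349.8 ± 1692 normalized counts in psoas and 2304 ± 1268 in EDL (SD, n = 5 each; log2 fold change 0.03, edgeR adjusted p = 0.968). Krt8 had 713 ± 449 in psoas and 769 ± 769 in EDL (SD, n = 5 each; log2 fold change -0.10, edgeR adjusted p = 0.927). Pdpn (podoplanin) had 291 ± 75.0 in psoas and 154 ± 40.6 in EDL (SD, n = 5 each; log2 fold change 0.91, edgeR adjusted p = 0.0244). The direction of Krt18 and Krt8 changed with the setting, as listed among the alternatives. Muc16, Calb2, Gata4 and Tcf21 of the list were not among the 17924 genes analysed here. The paper kept that number after removing marginally expressed genes over both genotypes.

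In psoas against soleus, 0 of the 16 genes were called by edgeR and 1 by DESeq2, where 0.00586% of all genes were called higher in psoas by edgeR. At an unadjusted p under 0.05 there were 9, the median log2 fold change was 1.09, and 14 of 16 were positive. Over the whole table, 13 genes (0.0762%) were called in either direction. In soleus against EDL, Tbx18, a T-box transcription factor, was the 1 gene called, at 119 to 181 normalized counts in soleus and 47.8 to 70.8 in EDL (log2 fold change 1.30 ± 0.237 SE, edgeR adjusted p = 0.00831), and its call held in 7 of 19 alternatives. It was lost without any 1 soleus library (edgeR adjusted p of 0.0186 to 0.0692), without EDL replicate 1, 2, 3 or 5 or psoas replicate 3, 4 or 5 (0.0104 to 0.0209), and with the replicate block (0.0656).

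**Figure D3:**
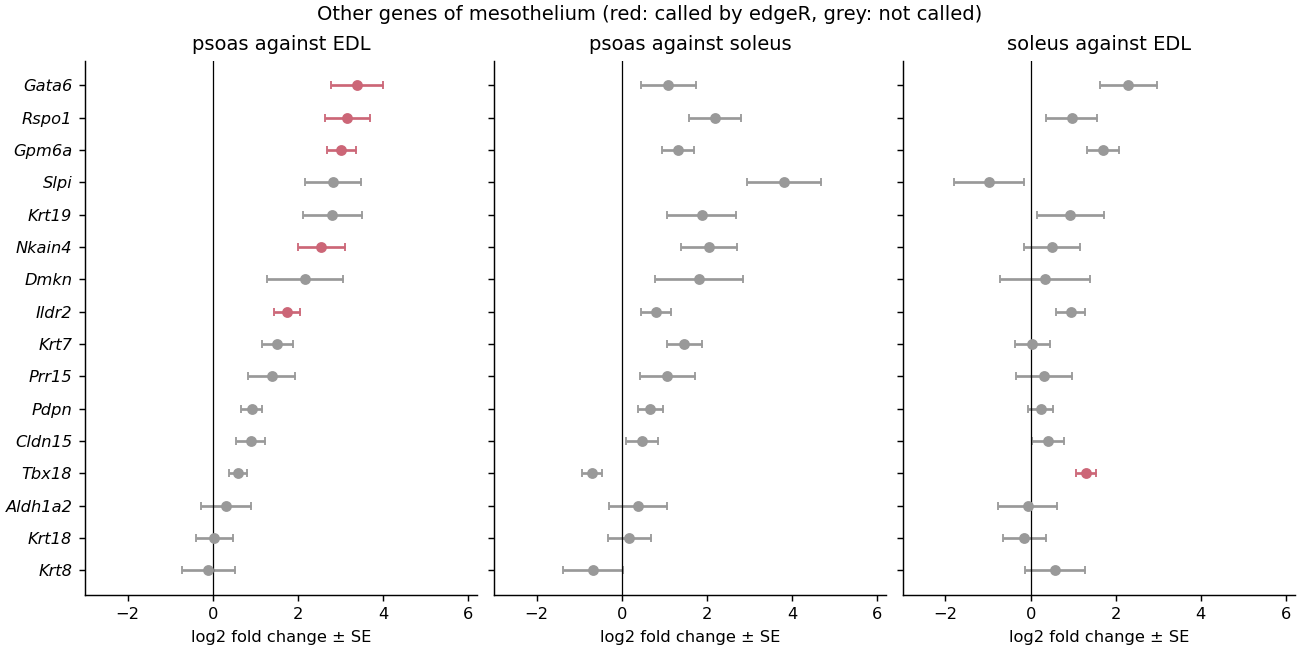
The points give the edgeR log2 fold change and the bars its SE, derived from the F statistic, for the 16 other genes of mesothelium, in psoas against EDL (left), psoas against soleus (middle) and soleus against EDL (right). The 5 genes called in psoas against EDL, in red, are Gata6, Rspo1, Gpm6a, Nkain4 and Ildr2, 0 are called in the middle panel and Tbx18 is called in the right panel.

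Uroplakins, Wt1 and keratins are shared with other epithelia and organs, so lists for those were read beside the members in psoas against EDL. Of 10 genes of urothelium, the bladder lining, 1 was among the genes analysed, Trp63, which was not called, and Upk1a, Upk2, Upk3a, Krt5, Krt20 and the others were not among them. The Trp63 level was 233 to 718 normalized counts in EDL, 552 to 1111 in psoas and 340 to 809 in soleus. Of 10 genes of gonad and adrenal, 3 were analysed and 0 called by edgeR (1 at an unadjusted p under 0.05, 0 by DESeq2), and their sum was 58.1 to 102 in EDL, 62.5 to 97.1 in psoas and 62.1 to 85.2 in soleus.

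Of 10 genes of kidney epithelium and podocytes, 2 were analysed, and Lrp2 (megalin, an endocytic receptor of several epithelia) was called. Lrp2 held 128, 128, 25.6, 67.7 and 39.0 normalized counts in psoas, at most 2 counts in any EDL library, and 10.3, 1.43 and 6.88 in soleus. It was thus highest in psoas replicates 1 and 2, as were 5 of the 6 members. Its log2 fold change was 6.70 ± 0.770 (SE, edgeR adjusted p = 0.000654), a value that depends on the prior count because EDL was under the floor. Lrp2 passed the limit on low counts only through psoas, so its call is a description only. Nphs1 (nephrin) of the podocyte was not called (log2 fold change -0.96, edgeR adjusted p = 0.237), and Umod, Slc12a1, Slc34a1, Aqp2, Pax8, Cdh16 and Pax2 were not among the genes analysed here. The sum of both kidney genes was 33.8 to 327 in EDL, 71.4 to 199.8 in psoas and 32.9 to 77.4 in soleus.

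Of 10 genes of other epithelia, 3 were analysed, and Cdh1 (E-cadherin) was called, with 204, 80.1, 32.97, 13.03 and 33.2 normalized counts in psoas and 0 to 10.2 in EDL. Its log2 fold change was 3.80 ± 0.792 (SE, edgeR adjusted p = 0.00676), and this call held in 12 of 19 alternatives. It was lost without any 1 of EDL replicates 2 to 5 or psoas replicates 1 and 2 (edgeR adjusted p of 0.0135 to 0.0182), and without both of these psoas libraries (0.0696). Psoas replicate 1 was by far the highest, and Epcam, Cldn3, Cldn4, Cldn7, Esrp1, Esrp2 and Grhl2 were not among the genes analysed here. The sum of the 3 genes was 26.8 to 73.7 in EDL, 52.1 to 237 in psoas and 48.8 to 61.4 in soleus. Cdh1 passed the limit on low counts only through psoas, so its call is a description only.

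Lists of tissues that lie around muscles or in the abdomen also moved in part with psoas. Of 10 smooth muscle genes 1 was called, Acta2 (smooth muscle actin), with a log2 fold change of 1.42 ± 0.271 (SE, edgeR adjusted p = 0.00437), and the sum was 3217 to 5414 in EDL, 5733 to 16868 in psoas and 4952 to 9448 in soleus, with psoas replicate 1 highest. The call of Acta2 was lost without EDL replicate 3 or 5 or psoas replicate 1 (edgeR adjusted p of 0.0102 to 0.0153), and without both psoas replicates 1 and 2 (0.0279). Of 10 B cell and lymph node genes 5 were analysed and 3 called higher in psoas, namely Pax5 (log2 fold change 3.79, edgeR adjusted p = 0.00122), Ccl21a (2.85, edgeR adjusted p = 0.000654) and Ms4a1 (2.38, edgeR adjusted p = 0.00595). Pax5 and Ms4a1 passed the limit on low counts only through psoas, so their calls are descriptions only. Ms4a1 was lost without EDL replicate 1, 3, 4 or 5 or psoas replicate 2 or 5 (edgeR adjusted p of 0.0118 to 0.0182), without both psoas replicates 1 and 2 (0.0409), and when the label code was a block (0.0114). The sum of the 5 was 47.3 to 156 in EDL, 245 to 1085 in psoas and 528 to 748 in soleus. Ccl21a was also called in soleus against EDL (log2 fold change 4.05, edgeR adjusted p = 8.54e-05).

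White adipocyte genes, 10 of 10 analysed, gave 0 calls in psoas against EDL by edgeR (5 at an unadjusted p under 0.05, 2 by DESeq2), and 4 were called higher in soleus than in EDL (Lipe, Retn, Adipoq and Cfd, named after their values were seen). Their sum was 15034 to 37512 in EDL, 19063 to 50577 in psoas and 76358 to 99523 in soleus, the reverse of the member order between psoas and soleus. Peritoneal macrophage genes, 10 of 10 analysed, gave 0 calls by edgeR (4 at an unadjusted p under 0.05, 2 by DESeq2), at sums of 1075 to 2257 in EDL, 1093 to 2322 in psoas and 1430.5 to 1544 in soleus. In psoas against EDL, 8 of the 10 were positive, with a median log2 fold change of 0.48, against 0.02 over all genes. Itga6 alone had a mean of 990 in psoas, where the mean sum was 1644, so the sum says little about the other genes of the list. Of the 10 skeletal muscle genes, 3 were lower in psoas (2.5% of all genes were), Ckm, Myh4 and Tnnt3, with log2 fold changes of -1.67, -4.18 and -1.70 (edgeR adjusted p of 0.00356, 0.00223 and 0.00203). All 3 calls were lost without both psoas replicates 1 and 2 (edgeR adjusted p of 0.0279, 0.0222 and 0.0217), and Ckm also without EDL replicate 3 (0.0105) or psoas replicate 2 (0.0107). The part of any of these tissues in the level of the 6 mesothelial genes was not tested.

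**Figure D4:**
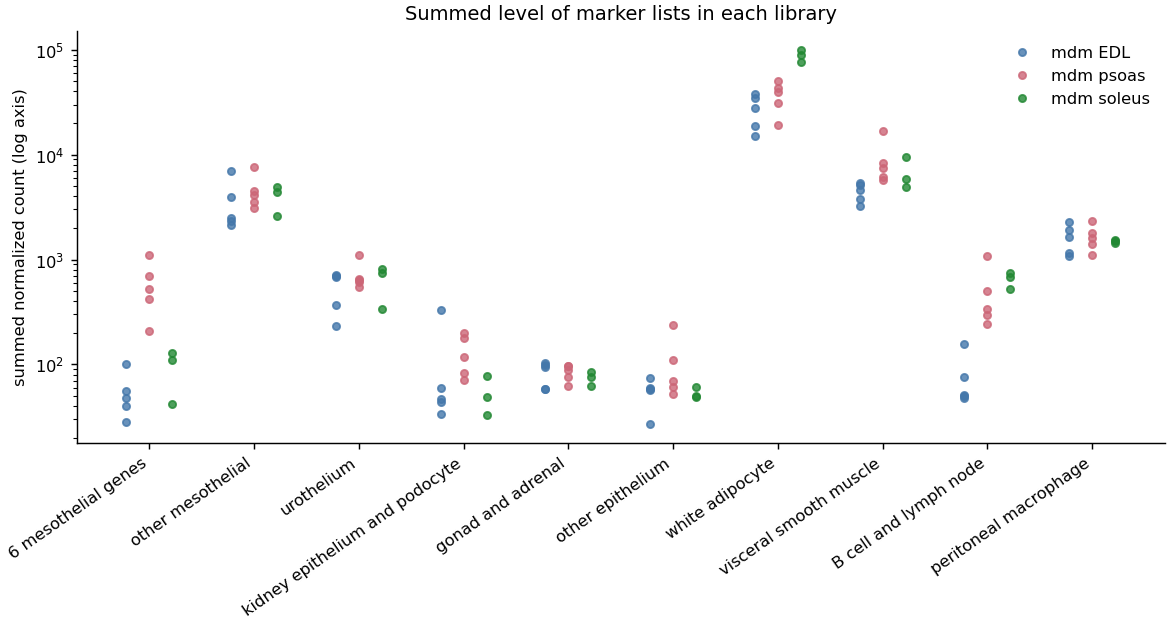
Each point is the summed normalized count of a marker list in 1 library, on a log axis, for *mdm* EDL (5 libraries), psoas (5) and soleus (3). The 6 mesothelial genes are higher in every psoas library (208 or more) than in any other (129 or less), the white adipocyte list is highest in soleus, and the lists of gonad and adrenal and of peritoneal macrophages overlap between all muscles.

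The genes most like the members over the 13 libraries were found by the correlation of their log2 CPM with the mean log2 CPM of the 6. Among 17063 other genes, for which the 99th percentile of r was 0.83, the highest were Lrp2 (r = 0.97), Wnt2b (0.96), Zfpm2 (0.95), Myrf (0.95), Dlk1 (0.93), Cxadr (0.93), Avpr1a (0.93), Rspo1 (0.93) and Hoxc6 (0.92). They were chosen by their values, so no test of them is given. Wnt2b, a secreted Wnt ligand, had 30.2 to 164 normalized counts in psoas, 4.36 to 9.37 in EDL and 11.4 to 20.3 in soleus. Zfpm2, a cofactor of GATA factors, had 36.5 to 63.4 in psoas, 10.8 to 15.3 in EDL and 20.7 to 24.1 in soleus. Both were lowest in EDL and highest in psoas with no overlap of the muscles.

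Myrf, a membrane-bound transcription factor known for its part in myelination, had 12.4 to 121 normalized counts in psoas, 0.638 to 4.26 in EDL and 0.714 to 7.86 in soleus. Dlk1, a membrane protein with EGF-like repeats, had 68.7 to 138 in psoas and at most 17.9 in any other library. Cxadr, an adhesion protein of tight junctions, had 84.3 to 428 in psoas and at most 65.3 elsewhere. The vasopressin receptor Avpr1a and the homeobox gene Hoxc6 had 43.1 to 128 and 24.7 to 72.7 in psoas, against at most 48.4 and 23.2 elsewhere, so Avpr1a overlapped between psoas and soleus.

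**Figure D5:**
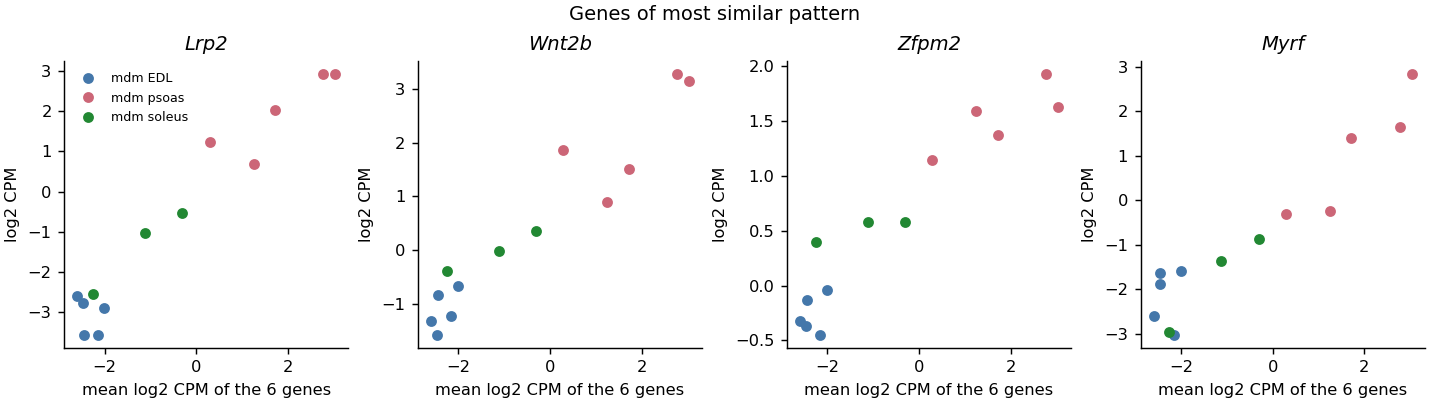
The log2 CPM (prior count of 2) of the 4 genes most like the members, Lrp2, Wnt2b, Zfpm2 and Myrf, is plotted against the mean log2 CPM of the 6 mesothelial genes, 1 point per library of *mdm* EDL, psoas and soleus. In each panel the psoas points lie at the upper right and the EDL points at the lower left (r of 0.97, 0.96, 0.95 and 0.95 over 13 libraries).

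Within muscles, after the mean of each was subtracted, the most similar genes were others, namely Gm10709 (r = 0.90), Pard6b (0.89), 4833420G17Rik (0.87), Gm8210 (0.87) and Gm13841 (0.87), where the 99th percentile over all genes was 0.66. Of these, Gm10709, Gm8210 and Gm13841 are processed pseudogenes, whose reads may be shared with near-identical copies. Pard6b, a protein of epithelial polarity, had 1.66 to 38.7 normalized counts in psoas, 4.36 to 11.9 in EDL and 2.86 to 9.10 in soleus. Within muscles, r was 0.85 for Myrf and 0.81 for Lrp2, and between 0.59 and 0.73 for the other genes named over all libraries.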

How the data were processed

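RNA of whole *mdm* EDL (5), psoas (5) and soleus (3) muscles was sequenced by the authors as stranded total RNA libraries in paired 75-base reads. The authors trimmed libraries of low base quality with Trimmomatic 0.32, aligned reads to GRCm38.p4 with TopHat2 2.1.1 and counted them per gene with GenomicAlignments; the overlap mode and strand setting are not given in the sources used here. By the paper, removing marginally expressed genes over both genotypes left 17924 genes. For that number of genes they deposited whole-number counts and a normalized signal. Dividing one by the other gave the DESeq2 size factor, 0.5023 to 2.417, the same for all genes of a library within 5.2e-15 of it.

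Genes reaching a normalized count of 10 in 3 or more libraries entered edgeR 4.0.16 (R 4.3.3), with its quasi-likelihood test and TMM on the deposited counts, all 13 libraries in 1 fit of the muscle. Calls needed a fold change beyond 1 on the log2 scale, up or down, and an adjusted p (Benjamini-Hochberg) under 0.01. The study also fitted the sequencing run, which the labels do not name. CPM are counts scaled to the library total, log2 CPM has a prior count of 2, and folds against a muscle at or under 3 counts in every library were computed against that floor. At the lowest total, 9114176, 3 counts are 0.329 CPM. Reads carry no molecular identifiers, so intervals and floors cover counting error only.

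DESeq2 1.42.0, RLE size factors, no low-count limit, the label code or the replicate number as a block, each library left out in turn and, chosen after seeing the data, both psoas libraries of highest summed level left out were alternatives. The deviations of same-numbered EDL and psoas libraries from their muscle means correlated by 0.407, 0.37, 0.316, 0.289 and 0.371. All were above 0.1, so the replicate number was tried as a block. Libraries of unlike number were not compared, so these values cannot show that a number stands for the same mouse. Replicate 1, the highest, came from mice of 38 days in EDL and 29 days in psoas, so the block holds a pair of different mice. The members and gene lists were chosen with earlier results of these data known. Text names all members, list genes called in any comparison (other mesothelial genes) or in psoas against EDL (other cell types, at most 4 a list), the 3 mesothelial genes of highest level per kb in psoas, listed genes at 0 or outside the table, and the 10 and 5 genes of highest correlation, except an item that is not reported here. Symbols and coordinates of 17833 genes came from GENCODE mouse release 21 (GRCm38), and promoters from RefSeq. In simulated counts of psoas against EDL over 17069 genes, with 200 changed 4-fold, edgeR recovered 86% with 3 false calls, 69% with 2 under the label code block and DESeq2 96% with 12. The changed genes were drawn only from those above a set mean count. The recovery therefore does not cover genes of lower count, such as Bnc1 and Wt1. Tables used Python 3.11.15 (numpy 2.4.6, pandas 2.3.3), and plots matplotlib 3.10.9.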

Additional observations from a re-analysis of the deposited data

Results flagged for a closer look

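The EDL and psoas libraries were checked for the members, their summed level and the genes of the other lists taken by the rule for named genes, leaving out groups in which no library exceeded 3 counts. In 2 of the 44 groups of 5 libraries checked, 1 library stood apart from the other 4 by Dixon's limit of 0.71 on the gap divided by the range, and chance alone gives about 5% of such groups. Both were psoas replicate 2, the library with the highest summed level of the 6 mesothelial genes. Nkain4 had a normalized count of 86.5 there, against 17.4 to 34.5 in the other psoas libraries (gap over range 0.753). Ildr2 had 472, against 177 to 228 in the others (gap over range 0.827). No member had such a library in a group that was checked. Upk3b, Bnc1, Wt1 and Upk1b in EDL, at 0 to 2 counts per library, and groups of 3 were not checked.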

How the results depend on the processing

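The summed level of the members in CPM, psoas over EDL by 3.82 on the log2 scale, was 5.25 within label code T4, 5.92 without Msln and 3.50 to 4.21 with 1 library left out. Psoas over soleus, 2.71, was 4.23 within T4, 1.58 within T6 and 2.23 to 3.09 with 1 library left out. Both kept their direction in every alternative run. That was fixed beforehand, since no psoas library overlapped the other muscles in summed level, so nothing is read from it. With DESeq2, the genes called rose from 841 to 1586 in psoas against EDL, from 13 to 171 (76 higher) in psoas against soleus and from 167 to 633 in soleus against EDL, where the higher calls went from 91 to 270. DESeq2 called 8, 1 and 2 other mesothelial genes in these comparisons, against 5, 0 and 1 by edgeR. Under the label code block, psoas against soleus gave 6 calls and soleus against EDL 86, with 0 other mesothelial genes and 0 members in the last. With RLE size factors, 0 members were called in soleus against EDL.

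The replicate block was fitted to the libraries of the muscles compared only, so it also leaves out the third muscle. With it, psoas against EDL gave 1267 calls, psoas against soleus 1 and, for soleus against EDL, 0 other mesothelial genes and 0 members. In psoas against EDL, Nkain4 was the one named call that the block removed. By the ages in the labels, which differ for each number, the replicate numbers of soleus do not pair with the other muscles. Their correlations were -0.302 to 0.159 with psoas and -0.162 to 0.421 with EDL. Without psoas replicates 1 and 2, an alternative chosen after seeing the data, psoas against EDL gave 121 calls with 1 other mesothelial gene, psoas against soleus 2, and soleus against EDL 0 members.

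With 1 library left out, psoas against EDL gave 317 to 802 calls, lowest without EDL replicate 3 (317), psoas replicate 2 (365), EDL replicate 5 (426) or psoas replicate 1 (447), and 3 to 5 other mesothelial genes. Psoas against soleus gave 3 to 21 calls. Soleus against EDL gave 19 to 182 calls, lowest without soleus replicate 1 (19) or 2 (23), with 0 to 1 other mesothelial genes and 0 to 1 members. Differences that were not called changed sign for Msln in soleus against EDL (-0.0084 with the replicate block, -0.11 to 0.58 with 1 library left out, lowest without soleus replicate 3), Upk1b in soleus against EDL (-0.14 to 2.73 with 1 library left out, lowest without soleus replicate 1), Krt18 in psoas against EDL (-0.18 with the label code, -0.11 with the replicate block, -0.49 to 0.42 with 1 library left out) and Krt8 (0.15 with the replicate block, 0.17 without psoas replicates 1 and 2, -0.46 to 0.67 with 1 library left out). The cause was not tested. Upk3b, Bnc1, Wt1 and Upk1b were at 2 counts or fewer per library in EDL, under the floor of 3 counts. The deepest of the 13 libraries, EDL replicate 1 with a total of 48835209, held 1, 0, 1 and 2 counts of them.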
